A study of Sus scrofa with 32 samples.

Results

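Interferon pathway genes were examined in loin muscle (longissimus dorsi) taken from 32 pigs of 4 breed groups. Members were chosen by symbol alone: every gene whose symbol begins as an interferon-induced protein (IFI, IFIT), an interferon regulatory factor (IRF), a STAT, JAK, OAS, ISG, GBP or PARP gene or an interferon receptor, together with MX1, MX2, RSAD2, DDX58, TAP1 and TAP2. The rule found 44 of the 17930 gene identifiers listed in the files. A further 18 identifiers have matching symbols but no values in these data, so they could not be analysed. Among them are those of both IFNAR chains, IFNGR2, IFIH1, ISG15, OAS1, IFIT3, STAT6 and TAP1. DDX58 carries its newer symbol RIGI and is described with the related genes outside the rule.

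The groups were Landrace (L), a lean commercial breed; Dapulian (DPL), an indigenous Chinese breed; the Landrace x Dapulian cross (LDPL); and the Duroc x Landrace x Dapulian cross (DLDPL). All pigs were wild type, 6 months old and kept alike in housing and diet, with 8 libraries per group and 1 library per pig. Pigs are named here by group and label number, such as DLDPL 32. The L libraries are numbered in a series of their own and no batch is given, so the breed and any separate handling of the L pigs cannot be told apart.

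Interferons are cytokines released when cells sense foreign or misplaced nucleic acid. Type I interferons act through receptor-bound JAK1 and TYK2, which activate STAT proteins; STAT2 joins IRF9 in a complex that switches on antiviral genes such as MX1, the IFIT family and RSAD2. Type II interferon acts through JAK1 and JAK2, with IRF1 and the GBP genes among its targets. Muscle fibres, endothelium and resident immune cells all carry parts of this machinery.

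Library depth was 21732670 to 29736735 gene-assigned reads, and the 13 mitochondrial genes took 31.3% ± 5.59 of the reads in DPL (SD, n = 8), above the group means of L (20.8% ± 2.58), DLDPL (22.7% ± 4.86) and LDPL (22.9% ± 4.37). Fibre markers summed to between 66067 and 171286 CPM in every library, so the muscle label held. CPM is the number of reads scaled to a common effective library size, and it is the unit of all levels unless RPKM, which also divides by gene length, is named. Of the 44 members, 41 had enough reads to be tested. STAT4 (68 reads over all 32 libraries) and OASL (119) were among the 3 that did not.

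On the length-scaled RPKM scale the signalling members were the most abundant: median levels over the 32 libraries included 27.7 RPKM for STAT5B, 27.2 for JAK1, 17.7 for STAT3 and 11.2 for IRF2. IFI44L was the highest antiviral effector at 9.55 RPKM, followed by OAS2 at 5.88 and ISG20L2 at 5.27. MX1 stood at 2.88, IFIT2 at 2.50 and RSAD2 at 1.96 RPKM. At the low end were GBP1 at 0.263, ISG20 at 0.161 and TAP2 at 0.0352 RPKM, with the median of OASL at 0. The JAK1 model in the files is short, at 1141 bases, which bears on its place in this order. No strand was recorded. In the RefSeq annotation of the pig (Sscrofa11.1), where 43 of the 44 symbols were found, 11 gene pairs that hold 12 members overlap, among them STAT5A with STAT5B, PARP9 with DTX3L and IFIT2 with LIPA. Their shared reads cannot be assigned with certainty. MX1 and MX2, GBP1 and GBP2, and IFI44 and IFI44L are neighbouring relatives, and how reads common to relatives were treated is known only as unique mapping.

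Single pigs stood apart before any comparison of groups. In DLDPL 32, 11 of the 12 tested effectors were at their highest of the 8 DLDPL libraries, and so were 22 of the 41 members, whereas 14.7% of all tested genes were highest in this library. MX1, a dynamin-like GTPase that traps viral ribonucleoproteins, was at 110 CPM in DLDPL 32 and at 4.21 to 8.53 CPM in the other 7. RSAD2, which makes a nucleotide that stops viral polymerases, was at 59.8 CPM against a next value of 2.86. OAS2, a synthase of the second messenger that activates RNase L, was at 152 CPM against a next value of 15.1. The effectors in DLDPL 32 lay a median of 2.73 log2 units above the DLDPL group medians, while the median over all genes was -0.01. The exception was ISG20L2, a nucleolar exonuclease that is grouped with the effectors only by its symbol: it was lowest in DLDPL 32, at 7.81 CPM.

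Factors and PARP members also stood high in the same pig. IRF7, the factor that amplifies type I interferon production, was at 7.56 CPM in DLDPL 32 and at most 1.74 in the others. PARP14 and PARP9, members of the PARP family known as interferon targets, were at 33.9 and 13.4 CPM against next values of 4.70 and 4.72. STAT2 was at 19.2 against 8.49 CPM, IRF9 at 20.4 against 9.53 and IRF1 at 23.7 against 7.77. IFNGR1, JAK2, IRF5 and PARP8 were at their lowest of the group in DLDPL 32, so the receptor chain and this kinase did not share the pattern of the effectors.

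Most tested markers of immune cells were low within the group in DLDPL 32. Every tested macrophage marker ranked from 5 to 8 of 8, where rank 1 is the highest. Every tested lymphocyte and NK marker except CCL5 ranked from 6 to 8. The summed level of the macrophage list (10 of 15 listed genes in the files) was 33.0 CPM there, which ranked 7 of 8 in a group ranging from 32.4 to 70.1, although FCGR1A, an Fc receptor of that list, was highest there at 0.820 CPM against a median of 0.0749. The lymphocyte and NK list (12 of 16) stood at 90.0 CPM, rank 3 of 8, against a group median of 83.5. The chemokine CCL5 made up 83.6 of these 90.0 CPM, while PTPRC, CD3D, CD4 and CD8A were at their lowest of the group. The neutrophil list (4 of 7) stood at 0.604 CPM, rank 2 of 8, against a median of 0.388. FCGR1A and the 4 neutrophil genes had too few reads to be tested. The endothelial sum of 96.5 CPM and the fibroblast sum of 927 CPM were the lowest of the group. Depth (25625792 reads) and mitochondrial share (23.7%) were within the range of the other DLDPL libraries. The part of these markers in the values of DLDPL 32 was not tested. In bulk RNA, fewer cells of a type and less RNA per cell cannot be told apart.

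A pig with several raised effectors was found in each of the other groups too. DPL 11 was highest of its group in 9 of 12 effectors, with MX1 at 102 CPM, and LDPL 9 in 10 of 12, with MX1 at 37.4 and OAS2 at 70.1 CPM, whereas 13.4% and 12.5% of all tested genes were highest in these libraries. Their macrophage sums ranked 4 and 7 of 8, at 51.4 and 35.3 CPM. DPL 11 was not alone in its group, as MX1 was at 58.6 CPM in DPL 21, 49.2 in DPL 16 and 29.5 in DPL 30. Of 12 effectors, 10 were above the group median in DPL 11 and DPL 16, and 11 in DPL 21 and DPL 30. The search for outlying libraries described below marked neither DPL 11 nor LDPL 9. L 2 was highest in 10 of 12 effectors, but MX1 was there only 19.2 CPM, and 23.5% of all tested genes were highest in L 2. Its macrophage sum was 159 CPM against a group median of 36.6, and its lymphocyte sum was 136 against 70.4, both the highest in L, while its fibre sum was the lowest. The part of these cell markers in the L 2 values was not tested. In the other direction, DPL 19 was lowest of its group in 7 of 12 effectors and LDPL 10 in 10 of 12, with MX1 at 2.85 and 2.07 CPM. Of all tested genes, 12.5% were lowest in DPL 19 and 13.4% in LDPL 10.

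**Figure D1:**
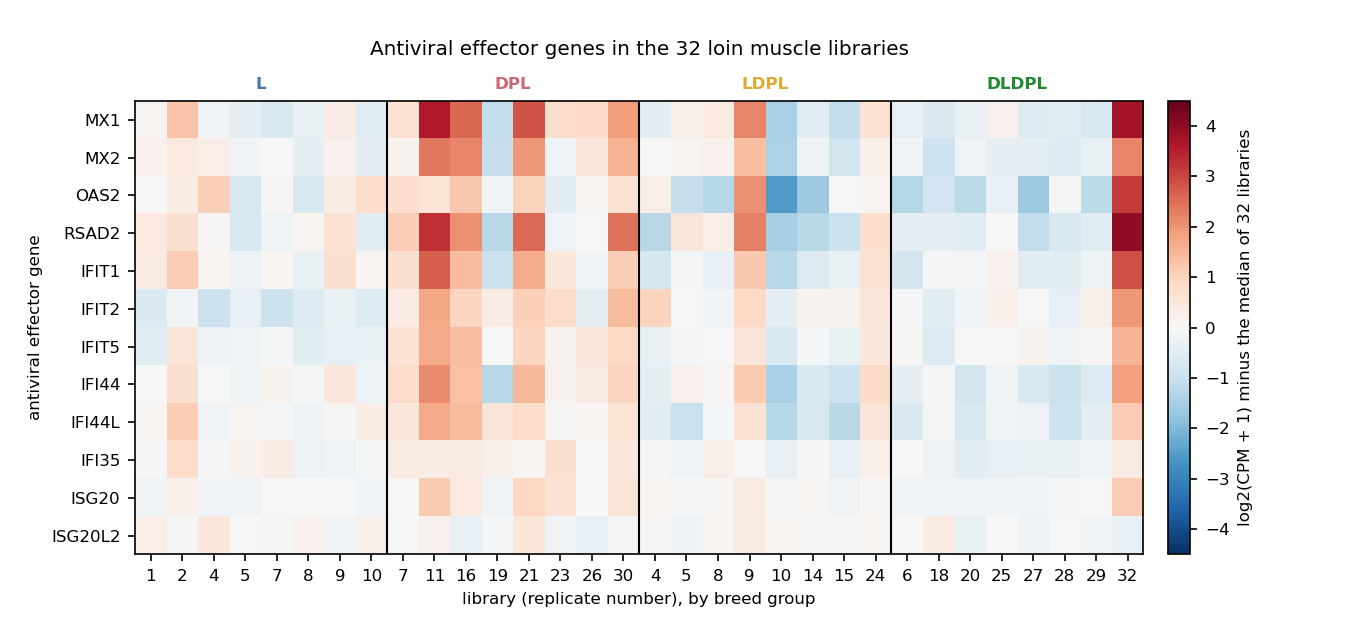
Level of the 12 tested antiviral effectors (rows) in each of the 32 libraries (columns, by group and label number), as log2(CPM + 1) minus the median over all 32 libraries for that gene; red is above and blue below. The columns of DLDPL 32, DPL 11 and LDPL 9 are among those red in most rows, with MX1 at 110, 102 and 37.4 CPM. So are those of DPL 16, DPL 21 and DPL 30, with MX1 at 49.2, 58.6 and 29.5 CPM. LDPL 10 is blue with MX1 at 2.07 CPM.

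The spread between pigs was wide for effectors. The median coefficient of variation of the 12 effectors was 41.0% for L, 55.7% for DPL, 72.1% for LDPL and 121% for DLDPL, against 21.2%, 27.5%, 23.0% and 23.2% for all tested genes. Without DLDPL 32 the DLDPL value was 25.8%, and without L 2 the L value was 26.0%, against 22.4% and 19.6% for all tested genes in the same libraries. Leaving out the highest pig moved the other groups less: DPL had 47.7% without DPL 11 and LDPL 58.3% without LDPL 9. For the 5 STAT genes the medians were 14.5%, 17.8%, 20.6% and 24.3% in the same order of groups. Within DPL, RSAD2 spanned a 60.3-fold range and MX1 a 35.6-fold range from the lowest to the highest pig.

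Dapulian against Landrace asks how the local breed differs from the commercial one. Antiviral effectors made up most of the members that were higher in DPL: IFIT2, IFIT5, ISG20, MX1 and MX2 passed the test, 5 of 12, together with JAK2, STAT3, IRF1 and IRF7, and PARP1 alone was lower. That is 9 of 41 members higher (22%) and 1 lower (2.44%), beside 19.1% of all tested genes higher and 18.9% lower. The share higher is thus near the background and the share lower is below it. The median log2 change was 1.13 over the 12 effectors, 0.27 over the 41 members and -0.02 over all 12821 tested genes. Each call is an adjusted p under 0.05 by edgeR's quasi-likelihood test with Benjamini-Hochberg adjustment over all tested genes. With limma on log2(RPKM + 1), where the median of all genes is shifted by -0.12, the calls over all genes were 1277 higher and 3412 lower in place of 2455 and 2418, and those of the members were 4 higher and 2 lower. JAK2, STAT3, IRF7, MX1 and MX2 lost their calls under limma, and IRF2 gained one as lower.

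IFIT2, which binds viral RNA, showed the clearest difference. Its level was 3.42 to 6.92 CPM in L (median 4.81), 5.31 to 27.8 in DPL (15.1), 5.35 to 16.4 in LDPL (8.71) and 5.21 to 32.3 in DLDPL (7.29). Only the lowest DPL pig lay within the L range. The log2 change from L was 1.63 ± 0.33 in DPL (SE; adjusted p = 0.00018), 1.02 ± 0.32 in LDPL (adjusted p = 0.0163) and 1.06 ± 0.32 in DLDPL (adjusted p = 0.0164). The DLDPL call was lost without DLDPL 32, with a change of 0.55 (adjusted p = 0.126). The LDPL call was lost with limma on log2(RPKM + 1). The 3 comparisons share the same L libraries.

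IFIT5, an RNA-binding relative of IFIT2, was at 3.35 to 8.52 CPM in L (median 4.23), 5.44 to 19.9 in DPL (10.1), 3.0 to 8.53 in LDPL (5.16) and 3.24 to 17.6 in DLDPL (5.56). Most DPL pigs lay above all L pigs, and the highest L value was L 2. The log2 change of DPL against L was 1.21 ± 0.29 (adjusted p = 0.00109). The call held when any 1 of the 16 libraries was left out, as did those of IFIT2, IRF1, STAT3 and PARP1.

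MX1 was at 4.07 to 19.2 CPM in L (median 6.12), 2.85 to 102 in DPL (21.8), 2.07 to 37.4 in LDPL (7.06) and 4.21 to 110 in DLDPL (5.24). The overlap of DPL with L came from DPL 19, at 2.85 CPM, and from L 2, at 19.2: every other DPL pig was at 12.5 CPM or above, and every other L pig at 9.62 or below. The log2 change of DPL against L was 2.14 ± 0.70 (adjusted p = 0.0157). Its neighbour MX2, a GTPase of the same family, was at 3.35 to 7.40 CPM in L (median 5.71), 1.99 to 31.2 in DPL (12.5), 1.34 to 15.0 in LDPL (5.46) and 2.28 to 27.2 in DLDPL (3.87). The MX2 change of DPL against L was 1.45 ± 0.49 (adjusted p = 0.0193), again with overlapping ranges. ISG20, an exonuclease of RNA, was sparsely read, with 23 reads over the L libraries and 120 over the DPL libraries. Its levels were 0 to 0.308 CPM in L (median 0.0768), 0 to 1.53 in DPL (0.593), 0 to 0.482 in LDPL (0.172) and 0 to 1.51 in DLDPL (0), and its change of DPL against L was 2.56 ± 0.87 (adjusted p = 0.0193). These 3 calls were lost without DPL 11, while the changes stayed large: 1.69 for MX1 (adjusted p = 0.0563), 1.21 for MX2 (adjusted p = 0.0574) and 2.18 for ISG20 (adjusted p = 0.0566). In that fit 5 members were higher and 1 was lower, beside 17.9% of all genes higher and 17.3% lower.

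The other effectors did not pass in this comparison. RSAD2 had a change of 2.03 ± 0.84 (adjusted p = 0.0537), with 1.34 to 5.35 CPM in L (median 2.99) and 0.600 to 36.2 in DPL (11.1). IFIT1, a sensor of incompletely capped viral RNA, had 1.04 ± 0.55 (adjusted p = 0.135) and IFI44 0.97 ± 0.46 (adjusted p = 0.0917). OAS2 had 0.32 ± 0.62 (adjusted p = 0.716), with medians of 18.9 CPM in L and 26.3 in DPL. With L 2 and DLDPL 32 both left out, 16 members passed in DPL against L, 15 of 41 higher and 1 lower, beside 18.7% of all genes higher and 18.7% lower. RSAD2, IFIT1, IFI44, IFI44L, IFI35, IRF3 and PARP14 were added and JAK2 was lost. Each added member had its highest L value in L 2, so leaving that pig out raises its change by construction. DPL 11, highest of its group in 9 of 12 effectors, was kept. Without L 2 alone, 11 members passed. The fit without both pigs was chosen after the data were seen and is no independent test.

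**Figure D2:**
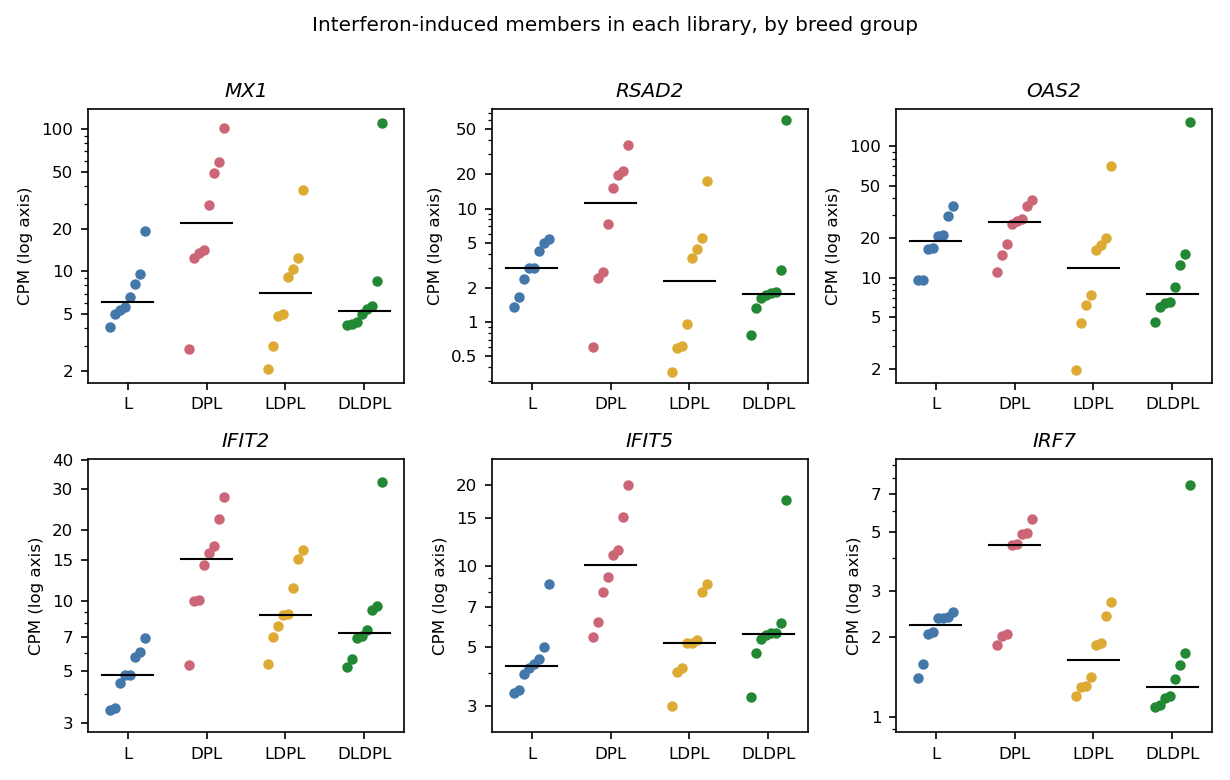
Level in CPM (log axes) of 6 interferon-induced members in each library, with 8 points per group in rising order and a black line at the group median. The single high DLDPL point is DLDPL 32 in every panel (MX1 110, OAS2 152, RSAD2 59.8 CPM), and DPL medians lie above L medians (MX1 21.8 against 6.12, IFIT2 15.1 against 4.81 CPM).

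Markers of several cell types differed between DPL and L. Of 8 tested lymphocyte and NK markers, CD3D, CD4 and CD8A were called lower in DPL and none was called higher. Medians were 0.644 CPM in DPL and 1.92 in L for CD4, and 0.362 and 1.31 for CD8A. The median of the list's sum was higher in DPL, at 84.6 CPM against 70.4 in L. Most of it was CCL5, with medians of 75.3 and 56.0 CPM. NKG7 also had a higher median in DPL, while PTPRC, CD2 and the tested GZMA identifier had lower ones. None of 9 tested macrophage markers was called, and none was at 0 throughout a group. The group medians of the macrophage sum were 50.8 CPM in DPL and 36.6 in L, and those of CD14 were 5.25 and 2.50. Of the 4 adipocyte markers, LIPE was higher, and the medians of their sum were 89.1 CPM in DPL and 37.3 in L. Fibroblast markers were lower in 3 of 5 cases, with medians of their sum of 723 CPM in DPL and 1773 in L. Of 8 endothelial markers 1 was higher and 2 were lower, and 4 of 7 fibre markers were lower and 2 higher. The part of these markers, and of the higher mitochondrial share of DPL, in the member differences was not tested. The number of members called was again 10 with the mitochondrial genes left out.

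**Figure D3:**
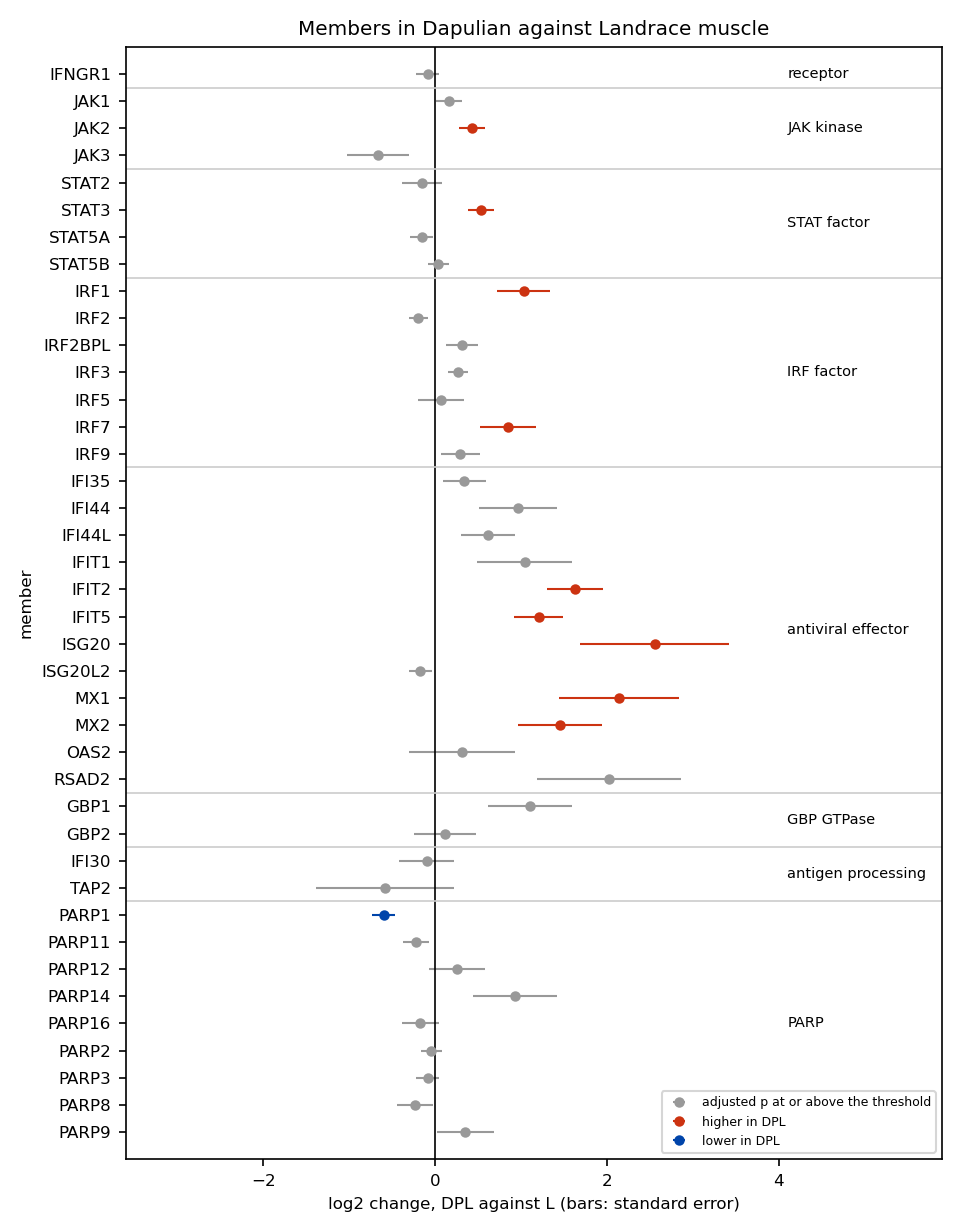
Log2 change of DPL against L with its standard error for 40 of the 41 tested members, grouped by role. Red points passed as higher in DPL (9 members, IFIT2 at 1.63 and MX1 at 2.14 among them), the blue point passed as lower (PARP1 at -0.60), and grey points did not pass.

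IFNGR1 and JAK1 had no called difference, while JAK2 and JAK3 each passed in 1 pair. IFNGR1, the ligand-binding chain of the type II receptor, had log2 changes of -0.23 to 0.04 over the 6 pairs of groups, and its smallest adjusted p was 0.213. JAK1, the kinase shared by both receptor types, had changes of -0.15 to 0.35 (smallest adjusted p = 0.0703). JAK2, the kinase of the type II receptor, was at 8.16 to 12.7 CPM in L (median 9.31), 8.99 to 18.2 in DPL (13.4), 7.92 to 14.8 in LDPL (10.5) and 8.25 to 16.2 in DLDPL (10.3). It was higher in DPL than in L by 0.43 ± 0.15 on the log2 scale (adjusted p = 0.0257), with overlapping ranges, and the call was lost without L 1, without L 2 and without DPL 11, where the change was 0.35 (adjusted p = 0.0769). JAK3, a kinase of immune-cell cytokine receptors, was at 1.20 to 6.14 CPM in L (median 2.06), 0.673 to 5.01 in DPL (1.3), 0.730 to 4.29 in LDPL (1.94) and 0.817 to 1.93 in DLDPL (1.40). Its highest L value was L 2. JAK3 was lower in DLDPL than in L by -0.99 ± 0.36 (adjusted p = 0.0457), a call lost in 11 of 16 fits that each left out 1 library. Without L 2 the change was -0.69 (adjusted p = 0.162).

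STAT3, which carries signals of the interleukin 6 family, was the one called STAT gene in DPL against L. It was also the only member in that comparison with a call and no overlap between groups. The share of all tested genes without overlap is not given, so this does not set STAT3 apart from other genes. It was at 34.4 to 42.6 CPM in L (median 37.8), 44.8 to 75.9 in DPL (55.0), 38.9 to 86.4 in LDPL (46.4) and 35.0 to 88.1 in DLDPL (50.6). Every DPL pig was above every L pig. The log2 change was 0.54 ± 0.15 in DPL against L (adjusted p = 0.00543) and 0.47 ± 0.15 in DLDPL against L (adjusted p = 0.024); the latter call was lost without DLDPL 28, at 0.32 (adjusted p = 0.1). In LDPL against L it was 0.38 ± 0.15 (adjusted p = 0.0572).

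STAT2, the partner of IRF9, was at 8.53 to 17.3 CPM in L (median 9.85), 4.73 to 15.7 in DPL (9.44), 4.54 to 9.15 in LDPL (6.25) and 5.68 to 19.2 in DLDPL (6.88). It was lower in LDPL than in L by -0.71 ± 0.24 (adjusted p = 0.0219), and without L 2 the change was -0.58 (adjusted p = 0.0599). STAT5A, a factor of growth hormone and prolactin signalling, was at 14.6 to 20.9 CPM in L (median 16.7), 12.7 to 18.6 in DPL (15.1), 9.57 to 18.1 in LDPL (13.7) and 8.40 to 18.7 in DLDPL (13.0). It was lower in DLDPL than in L by -0.36 ± 0.13 (adjusted p = 0.0474), a call lost in 11 of 16 fits that each left out 1 library. STAT5B, whose reads may be shared with STAT5A, had -0.26 ± 0.13 in the same comparison (adjusted p = 0.13).

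IRF1 and IRF7 were the IRF factors higher in DPL. IRF1, an activator induced by type II interferon, was at 4.29 to 10.7 CPM in L (median 5.04), 5.06 to 25.6 in DPL (10.9), 4.93 to 9.14 in LDPL (6.89) and 4.80 to 23.7 in DLDPL (6.57). Its change of DPL against L was 1.03 ± 0.31 (adjusted p = 0.00837). IRF7 was at 1.40 to 2.49 CPM in L (median 2.22), 1.88 to 5.59 in DPL (4.49), 1.20 to 2.71 in LDPL (1.64) and 1.09 to 7.56 in DLDPL (1.29). The DPL pigs were split, some within the L range and the others above every L pig. The IRF7 change of DPL against L was 0.85 ± 0.33 (adjusted p = 0.038), and the call was lost in 9 of 16 fits that each left out 1 library, up to an adjusted p of 0.0832 without DPL 11, where the change was 0.75.

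IRF9, the DNA-binding part of the complex with STAT2, was lower in both crosses than in DPL. It was at 10.8 to 23.8 CPM in L (median 14.5), 7.76 to 28.9 in DPL (18.6), 6.20 to 15.8 in LDPL (9.00) and 7.59 to 20.4 in DLDPL (9.07). All DLDPL pigs except DLDPL 32 were at or under 9.53 CPM. The log2 change was -0.91 ± 0.23 in LDPL against DPL (adjusted p = 0.0314), -0.85 ± 0.23 in DLDPL against DPL (adjusted p = 0.0288) and -0.61 ± 0.23 in LDPL against L (adjusted p = 0.0419). In fits that each left out 1 library, these calls were lost in 6, 8 and 9 of 16, in that order, with changes of -1.04 to -0.79, -1.07 to -0.73 and -0.74 to -0.50. IRF9 was also below the midpoint of L and DPL in LDPL, by -0.76 ± 0.20 (adjusted p = 0.0182).

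IRF2 and IRF3 had small differences. IRF2, a repressor that competes with IRF1, was at 26.7 to 42.7 CPM in L (median 30.1), 23.6 to 34.6 in DPL (25.4), 24.4 to 30.0 in LDPL (25.9) and 19.5 to 31.6 in DLDPL (22.9). It was lower in DLDPL than in L by -0.38 ± 0.11 (adjusted p = 0.0137), and this held when any 1 of the 16 libraries was left out. IRF3, the latent factor that starts interferon beta transcription, was at 9.15 to 13.8 CPM in L (median 10.5), 10.6 to 17.4 in DPL (12.2), 8.68 to 13.7 in LDPL (10.0) and 7.72 to 11.0 in DLDPL (9.91). Its change in DLDPL against DPL was -0.43 ± 0.12 (adjusted p = 0.0334). The call was lost in 6 of 16 fits that each left out 1 library, where the change moved most without DPL 21, to -0.36 (adjusted p = 0.0842). IRF5 and IRF2BPL had changes of -0.32 to 0.31 over the 6 pairs, and none passed.

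Of the 9 tested PARP genes, PARP1 and PARP8 were called in at least 1 pair. PARP1, the main DNA break sensor of the family, was at 20.5 to 53.5 CPM in L (median 41.7), 21.3 to 30.0 in DPL (26.3), 21.5 to 32.3 in LDPL (25.5) and 24.9 to 40.2 in DLDPL (29.0). Most L pigs were above all DPL pigs, and L 7 was the lowest of all. PARP1 was lower in DPL than in L by -0.60 ± 0.14 (adjusted p = 0.000846) and in LDPL by -0.64 ± 0.14 (adjusted p = 0.000712), while DLDPL had -0.35 ± 0.14 (adjusted p = 0.064). PARP8, a less studied member, was at 2.05 to 6.5 CPM in L (median 3.24), 1.76 to 4.80 in DPL (2.95), 2.12 to 3.90 in LDPL (3.12) and 1.51 to 3.75 in DLDPL (2.25). Its highest value was L 2, and its change in DLDPL against L, -0.58 ± 0.21 (adjusted p = 0.0469), was -0.41 without L 2 (adjusted p = 0.147). The call was lost in 9 of 16 fits that each left out 1 library. PARP9, PARP12 and PARP14 had no called difference in the 6 pairs with all libraries, and PARP2, PARP3, PARP11 and PARP16 had changes of -0.51 to 0.30 with none called.

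**Figure D4:**
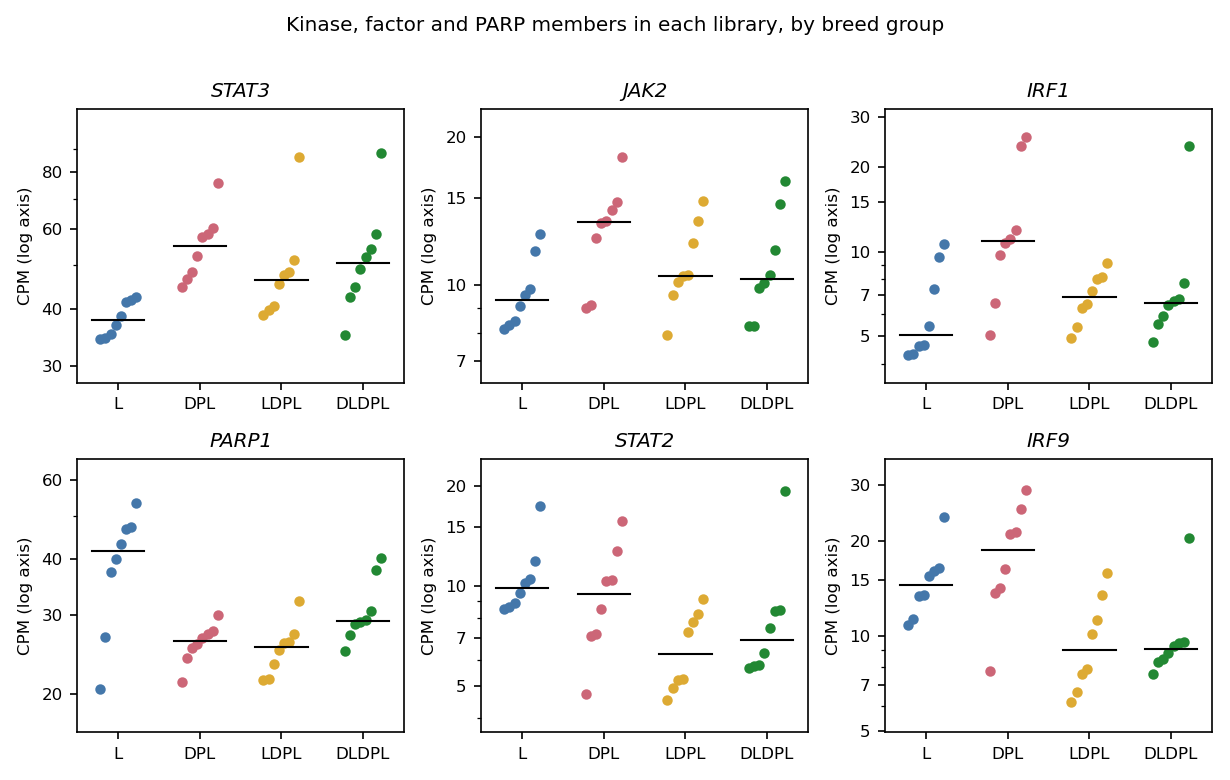
Level in CPM (log axes) of 6 kinase, factor and PARP members in each library, with 8 points per group in rising order and a black line at the group median. STAT3 does not overlap between L (34.4 to 42.6) and DPL (44.8 to 75.9), PARP1 is highest in L (median 41.7), and IRF9 is at about 9 CPM at the median of both crosses.

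The GBP GTPases and the antigen-processing members gave 1 call. GBP1, a GTPase that coats intracellular pathogens, had 1.10 ± 0.49 in DPL against L (adjusted p = 0.073), and GBP2 had changes of -0.29 to 0.15. IFI30, a lysosomal thiol reductase of antigen-presenting cells, had changes of -0.32 to 0.15, and its highest L value was 21.1 CPM in L 2 against a next value of 6.54. TAP2, a subunit of the peptide transporter for class I antigens, was barely read: 98 reads in all over the L libraries, 59 over DPL, 4 over LDPL and 159 over DLDPL. In CPM it was 0 to 1.48 in L (median 0.421), 0 to 0.750 in DPL (0.0949), 0 to 0.0811 in LDPL (0) and 0 to 2.29 in DLDPL (0.298), and 6 of the 8 LDPL libraries had no read. The test called it lower in LDPL than in L, -4.18 ± 1.15 (adjusted p = 0.00622), and below the midpoint of L and DPL, -3.89 ± 1.10 (adjusted p = 0.025). The size of these changes rests on few reads, and limma called neither. TAP2 lies in the highly polymorphic region of the class I and II antigen genes, and the effect of alleles on mapping was not tested.

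In the crosses, fewer members passed than in DPL. For LDPL against L, 1 of 41 members was higher (IFIT2) and 4 were lower (STAT2, IRF9, TAP2 and PARP1), beside 14.9% of all genes higher and 14.7% lower. For DLDPL against L, 2 were higher (STAT3 and IFIT2) and 4 lower (JAK3, STAT5A, IRF2 and PARP8), beside 11.6% and 10.3%. Both shares of higher members were under the background. Without L 2 the first comparison had 3 calls, and without L 1, L 10, DLDPL 6, DLDPL 25 or DLDPL 29 the second had 3. Lower calls over all genes went from 1888 to 1784 in the first. In the second they went from 1317 to between 1115 (without L 1) and 1252 (without DLDPL 29). Limma called 1 member in the second, IRF2, and on log2(RPKM + 1) 1237 genes in all were lower there. The median log2 change of the 12 effectors was 0.01 in LDPL and 0.44 in DLDPL, against -0.03 and -0.02 over all genes. Without DLDPL 32, 8 members were called in DLDPL against L, IRF2, IRF7, IRF9, STAT2, IFI35, PARP9 and PARP12 lower and STAT3 higher, beside 10.8% of all genes higher and 9.3% lower. IFI35, a partner of NMI in interferon-treated cells, then had -0.76 (adjusted p = 0.0275) and IRF7 -0.67 (adjusted p = 0.044). IRF7, IRF9, STAT2, IFI35, PARP9 and PARP12 had their highest DLDPL value in DLDPL 32. Leaving that pig out therefore lowers them by construction.

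Against DPL, every called member was lower in the crosses. In LDPL, IRF9, IFI44L and IFIT5 were lower, 3 of 41, beside 1.29% of all genes higher and 1.56% lower. IFI44L, an interferon-induced relative of IFI44, was at 15.9 to 41.1 CPM in L (median 19.9), 19.3 to 62.8 in DPL (28.3), 7.01 to 29.9 in LDPL (12) and 9.39 to 42.6 in DLDPL (14.5). Its change in LDPL against DPL was -1.13 ± 0.32 (adjusted p = 0.047), and that of IFIT5 was -0.99 ± 0.28 (adjusted p = 0.0492). Both calls are near the threshold and were lost in 12 and 11 of 16 fits that each left out 1 library. The count of called members was 0 without LDPL 8, LDPL 10, LDPL 14, LDPL 15, DPL 16 or DPL 21, and 1 without LDPL 4, LDPL 5, DPL 7, DPL 11 or DPL 30. Lower calls over all genes changed too. They were 200 with all libraries, and ranged in these fits from 82 without LDPL 5 to 239 without LDPL 4. Limma called no member, and on log2(RPKM + 1) 51 genes in all were lower, with the median of all genes at 0.06. The median change was -1.09 over the 12 effectors, -0.34 over the members and -0.00165 over all genes.

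In DLDPL against DPL, IRF3, IRF9 and IFI35 were lower, 3 of 41, beside 1.98% of all genes higher and 2.12% lower. IFI35 was at 0.852 to 2.97 CPM in L (median 1.18), 1.21 to 2.65 in DPL (1.86), 0.730 to 1.77 in LDPL (1.29) and 0.602 to 1.94 in DLDPL (0.845). Its change was -0.90 ± 0.26 (adjusted p = 0.0397). The count depended on single pigs: it was 0 without DLDPL 18 or DLDPL 25, and 1 without DLDPL 6, DLDPL 27, DLDPL 28, DLDPL 29, DPL 11, DPL 16 or DPL 21. Lower calls over all genes changed too. They were 272 with all libraries, and ranged in these fits from 145 without DLDPL 6 to 345 without DLDPL 28. Limma called no member, and on log2(RPKM + 1) 53 genes in all were lower, with the median of all genes at 0.09. Without DLDPL 32, 16 members were lower and none was higher, beside 2.25% of all genes higher and 2.48% lower. Each of the 16 had its highest DLDPL value in DLDPL 32, so leaving that pig out lowers them by construction. The fit describes the remaining pigs and is no independent test of these members.

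Those 16 were IFI35, IFI44, IFI44L, IFIT1, IFIT2, IFIT5, ISG20, MX1, MX2, RSAD2, IRF1, IRF7, IRF9, PARP9, PARP12 and PARP14. MX1 went from -0.93 (adjusted p = 0.468) with all libraries to -2.71 (adjusted p = 0.00458). RSAD2 went from -0.57 (adjusted p = 0.74) to -2.96 (adjusted p = 0.00955), and IRF7 from -0.86 (adjusted p = 0.13) to -1.52 (adjusted p = 0.000308). PARP14 went from -0.78 (adjusted p = 0.388) to -1.78 (adjusted p = 0.00757). OAS2 turned from 0.10 to -1.54 but did not pass (adjusted p = 0.0531). ISG20L2, IRF2 and STAT5B, by contrast, had -0.08, -0.18 and -0.30 with all libraries and did not pass without the pig either.

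**Figure D5:**
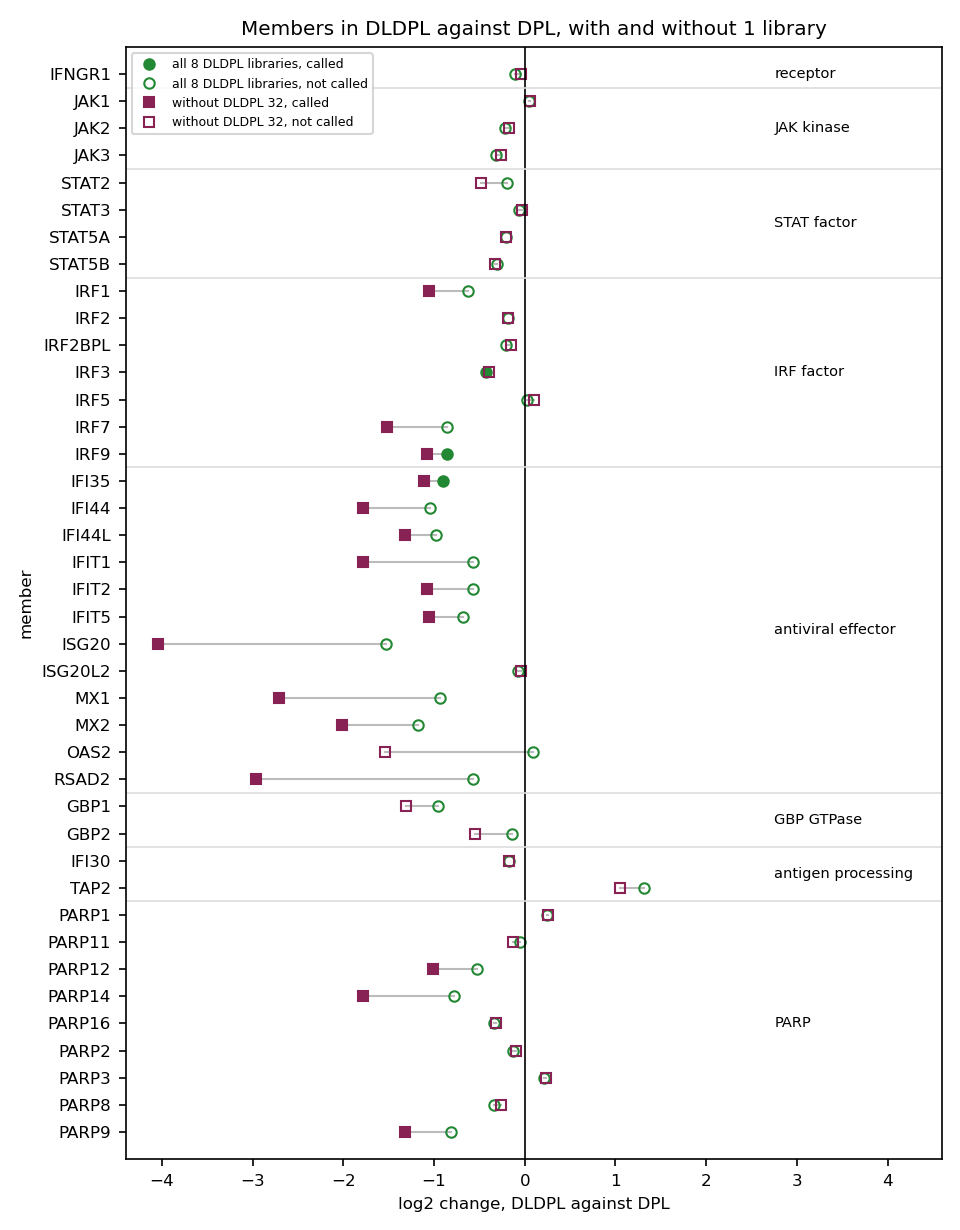
Log2 change of DLDPL against DPL for 40 of the 41 tested members, grouped by role, with all 8 DLDPL libraries (green circles) and without DLDPL 32 (purple squares); filled symbols passed the test. Most effectors move left and become filled when the pig is left out (MX1 from -0.93 to -2.71), and ISG20L2 stays near 0. DLDPL 32 held the highest DLDPL value of 11 of 12 effectors, so their move to the left is built in.

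Between the crosses, DLDPL against LDPL, 0 of 41 members passed, as did 0% of all genes higher and 0% lower. At an unadjusted p under 0.05 there were 3 members, TAP2, PARP1 and PARP3, and DESeq2 called 1, TAP2. Against the midpoint of its parental breeds, LDPL had 2 members lower, IRF9 and TAP2, and none higher, beside 5.13% of all genes higher and 2.99% lower. The median change there was -0.51 over the 12 effectors and -0.02 over all genes, and no effector passed. The count was 0 without LDPL 15, where lower calls over all genes went from 383 to 208. It was 5, all lower, without L 2 and DLDPL 32 together, beside 5.26% of all genes higher and 3.17% lower.

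Related genes outside the symbol rule were counted from a list of 80, of which 49 were in the files and 43 were tested. In DPL against L, 14 of 43 were higher and 3 lower (median change 0.53), beside 19.1% of all genes higher and 18.9% lower. TYK2, the partner kinase of JAK1 at the type I receptor, was lower in all 3 groups than in L. It was at 33.2 to 49.3 CPM in L (median 42.5), 18.2 to 27.6 in DPL (21.7), 18.5 to 29.4 in LDPL (26.9) and 19.1 to 36.5 in DLDPL (24.7). L did not overlap with DPL or LDPL, but the share of all tested genes without overlap is not given. The log2 change was -0.93 ± 0.12 in DPL (adjusted p = 3.58e-07), -0.69 ± 0.12 in LDPL (adjusted p = 6.1e-05) and -0.68 ± 0.12 in DLDPL (adjusted p = 0.000118).

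STING1, the adaptor of DNA sensing, was likewise lower than in L in DPL (-1.07 ± 0.21, adjusted p = 0.000152), LDPL (-1.10 ± 0.21, adjusted p = 0.000163) and DLDPL (-0.82 ± 0.21, adjusted p = 0.00421). TLR9, an endosomal DNA receptor of immune cells, was higher in DPL by 2.91 ± 0.53 (adjusted p = 5.15e-05), with medians of 0.423 CPM in L and 3.46 in DPL. Inhibitors of the pathway were among the genes higher in DPL. PTPN2, a phosphatase of JAK and STAT proteins, had 0.54 ± 0.11 (adjusted p = 0.00021), PIAS1, an inhibitor of activated STAT proteins, had 0.57 ± 0.11 (adjusted p = 0.00017), and TRAFD1, a feedback regulator, had 0.71 ± 0.16 (adjusted p = 0.000718). TICAM1, the adaptor of TLR3, had 1.33 ± 0.31 (adjusted p = 0.00091). ERAP1, which trims peptides for class I antigens, was lower in LDPL than in DPL by -1.19 ± 0.24 (adjusted p = 0.00695).

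In LDPL against L, 5 of the 43 related genes were higher and 7 lower, beside 14.9% and 14.7% of all genes. In DLDPL against L, 3 were higher and 5 lower, beside 11.6% and 10.3%. Against DPL, 3 were lower in LDPL, beside 1.56% of all genes, and 1 in DLDPL, beside 2.12%. Against the midpoint, in LDPL, 2 were higher and 3 lower, beside 5.13% and 2.99%. In DLDPL 32, 24 of the 43 were at their highest of the group, beside 14.7% of all genes. RIGI, the cytoplasmic sensor of viral RNA, was at 97.1 CPM there against a next value of 10.5, and USP18, a negative regulator at the type I receptor, was at 24.0 against 2.39. In L 2, 27 of the 43 were at their highest of the group, beside 23.5% of all genes. DPL 11 held the highest value of its group for 16 and LDPL 9 for 15.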

How the data were processed

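Per the labels, RNA of frozen loin muscle was made into libraries with a kit that does not mark strand, 1 library for each of 32 pigs. Beyond this no source says that each library is a separate animal; otherwise the p-values would reflect the spread among these samples alone, which may be technical. Bowtie 0.12.2 and Cufflinks are named in the submitters' processing notes, with mm8 as the build, which is that of the mouse, although the identifiers are those of pig genes. No positions are printed, since the pig build is not given in the sources used here. The authors deposited per gene and library the raw counts of uniquely mapped reads and RPKM values, which are the same counts scaled to gene length and library total. The deposited coverage column, a percent, and the gene lengths, in bases, were used to describe libraries and genes. Symbols were matched for 10836 of 17930 identifiers (60.4%); the rest held 14.5% of the reads.

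Counts were filtered (filterByExpr, minimum count 10, minimum total 15; 12821 genes with 99.97% of the reads), scaled by TMM and fitted in 1 quasi-likelihood model of the 4 groups over 32 libraries in edgeR 4.0.16 (R 4.3.3). Every adjusted p is from this fit unless another tool is named. It was adjusted over all tested genes by Benjamini-Hochberg, with calls under 0.05. The standard error is the log2 change divided by the square root of F. The code was tested on simulated data. Alternatives were DESeq2 1.42.0, other size factors, no filter, limma 3.58.1 on log2(RPKM + 1) and log2(RPKM + 0.1), a replicate block, mitochondrial genes left out and each library left out; a robust fit and leaving out L 2 with DLDPL 32 were added after seeing the data.

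Values by group were given for members called in at least 1 of the 6 pairs, with changes for up to 6 members of a role by smallest adjusted p, and for related genes by smallest adjusted p. Other members and libraries named were chosen after their values were seen. Outlying libraries were looked for in 40 of the 41 tested members, where the plan named only those called. Members and lists were chosen with earlier results of these data known. A few members are counted in totals but not reported here. Counts of 2 libraries of 1 group never agreed within sampling noise (smallest chi-square per degree of freedom 33.8).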

Additional observations from a re-analysis of the deposited data

Results flagged for a closer look

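In each group of 8 libraries the highest and lowest value of each of 40 tested members was set against the range of the group on log2 CPM, and a gap above 0.526 of the range marked a library as standing apart. Of 160 gene and group combinations, 24 were marked, and DLDPL 32 accounted for 17 of them. The threshold marks about 1 in 20 for independent, normally distributed values. Members that vary together in a pig are not independent, and the share of marks over all tested genes is not given. The count therefore has no background to be set against. In that pig the levels were 110 CPM for MX1, 27.2 for MX2, 152 for OAS2, 59.8 for RSAD2, 34.6 for IFIT1, 32.3 for IFIT2 and 17.6 for IFIT5. They were 21.7 CPM for IFI44, 42.6 for IFI44L, 1.51 for ISG20, 23.7 for IRF1, 7.56 for IRF7 and 20.4 for IRF9. They were 19.2 CPM for STAT2, 13.4 for PARP9, 7.08 for PARP12 and 33.9 for PARP14.

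L 2 was marked for 6 members: IFI30 at 21.1 CPM, IFI44L at 41.1, IFIT5 at 8.52, IRF5 at 6.33, PARP14 at 12.2 and STAT2 at 17.3. The remaining mark was LDPL 4 for STAT3, at 86.4 CPM.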

How the results depend on the processing

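Of 885 values of single members under an alternative, 701 kept their direction and side of the threshold, 173 lost it, 11 gained it and 0 turned over. RLE size factors and leaving out mitochondrial genes changed no count of called members by over 1.5 times. Limma on log2(RPKM + 1) and log2(RPKM + 0.1) gave 6 and 6 calls in DPL against L (10 by edgeR), 1 and 1 in DLDPL against L (6), 0 and 0 in LDPL against DPL (3) and 0 and 0 in DLDPL against DPL (3), and with the larger pseudocount 1 against the midpoint (2). Over all genes, limma on log2(RPKM + 1) called 51 lower in LDPL against DPL (200 by edgeR) and 53 in DLDPL against DPL (272). It called 1237 lower in DLDPL against L (1317) and 214 against the midpoint (383). DESeq2 called 6 members in LDPL against DPL, 1 in DLDPL against LDPL (0) and 4 against the midpoint. Over all genes it called 347 lower in LDPL against DPL and 530 against the midpoint, and 26 higher in DLDPL against LDPL (0). With no filter 3 members were called in DLDPL against L and 1 in LDPL against DPL, where the robust fit gave 1 too. Lower calls over all genes in LDPL against DPL were 130 with no filter and 189 with the robust fit. The cause of these shifts was not tested.

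Leaving out libraries gave 6 to 16 calls in DPL against L, 3 to 6 in LDPL against L, 3 to 8 in DLDPL against L, 0 to 4 in LDPL against DPL, 0 to 16 in DLDPL against DPL, 0 in DLDPL against LDPL and 0 to 5 against the midpoint. The highest values of 16 and 5 in DPL against L and the midpoint were those without both L 2 and DLDPL 32. Calls over all genes changed in these fits too, with 82 to 239 lower in LDPL against DPL and 145 to 347 in DLDPL against DPL. LDPL and L share 5 replicate numbers, and with the number as a replicate block over those libraries 2 members were called, against 4 without the block. Same-numbered libraries deviated with correlations of -0.0507 to 0.0913 and 0 of 5 matched its own number best. No sign of pairing by number was seen, but 5 pairs are too few to exclude it. Depth limits TAP2, ISG20 and the 3 untested members, which had few reads.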
